A study of Mus musculus with 30 samples.

Results

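The genes described here are 32 mouse genes of cholesterol and fatty acid synthesis, a fixed list of symbols that was matched to the Ensembl gene identifiers of the count tables. All 32 were found among 50686 counted genes. They are 18 enzymes of the sterol branch (Acat2, Hmgcs1, Mvk, Pmvk, Mvd, Idi1, Fdps, Fdft1, Sqle, Lss, Cyp51, Tm7sf2, Msmo1, Nsdhl, Hsd17b7, Ebp, Sc5d and Dhcr7), 5 genes of sterol sensing and transport (Srebf1, Srebf2, Scap, Insig1 and Stard4) and 9 genes of the fatty acid branch (Acly, Acaca, Fasn, Scd1, Scd2, Elovl5, Elovl6, Me1 and Thrsp). RNA was sequenced from thyroid tissue of C57BL/6 mice in 30 libraries, 3 in each of 10 groups, with 3 mice stated per group. The groups were FAD4T males and WT males at 2 months, FAD4T females and WT females at 2 months, FAD4T males and WT males at 8 months, FAD4T females and WT females at 8 months, and WT males at 18 months beside a separate set of WT males at 2 months. The labels give FAD4T as the genotype and do not state its alleles or the promoter that drives them; no treatment is given for any group. The 2-month WT males used with the 18-month mice carry the title numbers 4 to 6, and those used with the FAD4T males carry the numbers 1 to 3; this split was read from the titles together with the list of groups in the series design.

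Cholesterol and fatty acids are both built from cytosolic acetyl-CoA, which Acly releases from citrate. The sterol branch runs through the mevalonate pathway (Hmgcs1, Mvk, Pmvk, Mvd, Idi1, Fdps) to squalene (Fdft1, Sqle), is closed to lanosterol by Lss, and is then trimmed by Cyp51, Msmo1, Nsdhl, Hsd17b7, Ebp, Sc5d and Dhcr7. When membranes are poor in sterol, Scap carries the SREBP precursors from the endoplasmic reticulum to the Golgi, where they are cleaved into transcription factors, and Insig1 holds Scap back when sterol is plentiful. SREBP2, from Srebf2, is best known for sterol genes, and SREBP1, from Srebf1, for fatty acid genes. Thyroid tissue dissected from a mouse lies against fat that makes fatty acids in quantity, and Thrsp was named for its response to thyroid hormone in liver and fat.

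SREBP2 is known to bind sterol regulatory elements next to CCAAT boxes, which bind the factor NF-Y, so the windows from 250 bases before to 50 bases after the RefSeq start sites (build GRCm38.p6) were read for TCACNCCA, a short form of that element, and for CCAAT, each on both strands. Windows were held for 26 of the 32 genes, 33 windows in all; Fdps, Fdft1, Sqle, Stard4, Scd1 and Scd2 had none. TCACNCCA was present in 3 of the 33 windows (9.09%), those of Hmgcs1, Msmo1 and Srebf2, and in 4.36% of all 32851 mouse windows of that length. CCAAT was present in 23 of the 33 windows (69.7%) and in 37.4% of all windows. The form of the element was chosen after its matches were seen, and no match in these letters says nothing about binding. The 3 windows with both motifs are printed here with that of Cyp51, the sterol enzyme named in the most comparisons, which held a CCAAT box and no TCACNCCA. Capitals mark TCACNCCA and CCAAT or its reverse ATTGG; the element lies 137 bases before the start site in Hmgcs1, 177 in Msmo1 and 162 in Srebf2, and no 2 motifs overlap.
Srebf2, chr15:82147019-82147318, plus strand: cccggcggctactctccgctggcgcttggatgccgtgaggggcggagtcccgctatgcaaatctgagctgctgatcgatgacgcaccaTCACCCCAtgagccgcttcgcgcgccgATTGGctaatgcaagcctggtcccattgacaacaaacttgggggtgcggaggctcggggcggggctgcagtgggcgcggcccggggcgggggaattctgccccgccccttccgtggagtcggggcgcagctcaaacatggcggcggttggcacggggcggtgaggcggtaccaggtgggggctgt
Hmgcs1, chr13:119690101-119690400, plus strand: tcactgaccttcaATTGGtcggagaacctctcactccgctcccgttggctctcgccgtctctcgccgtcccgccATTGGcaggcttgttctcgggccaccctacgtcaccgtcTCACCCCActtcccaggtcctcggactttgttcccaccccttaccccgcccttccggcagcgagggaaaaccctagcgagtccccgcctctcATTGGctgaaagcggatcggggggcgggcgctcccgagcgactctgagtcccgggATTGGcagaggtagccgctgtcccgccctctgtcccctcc
Msmo1, chr8:64733529-64733828, minus strand: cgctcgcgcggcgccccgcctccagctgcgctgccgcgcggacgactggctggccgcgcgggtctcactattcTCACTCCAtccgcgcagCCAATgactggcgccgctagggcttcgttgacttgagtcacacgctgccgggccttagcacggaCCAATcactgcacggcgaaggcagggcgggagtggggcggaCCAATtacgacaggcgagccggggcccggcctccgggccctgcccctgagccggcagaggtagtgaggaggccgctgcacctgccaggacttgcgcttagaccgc
Cyp51, chr5:4104648-4104947, minus strand: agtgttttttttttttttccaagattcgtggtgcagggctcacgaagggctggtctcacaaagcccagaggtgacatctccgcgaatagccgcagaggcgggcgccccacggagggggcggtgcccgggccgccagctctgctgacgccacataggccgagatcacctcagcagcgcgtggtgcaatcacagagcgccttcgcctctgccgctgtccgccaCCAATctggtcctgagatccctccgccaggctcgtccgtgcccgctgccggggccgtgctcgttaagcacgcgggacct

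Library totals were 14083958 to 20256049 counts; levels are given as counts scaled to library size (CPM). Thyroglobulin, the store protein of the follicle, took 4.64% to 27% of the counts, all 9 follicle markers were above 1 CPM in every library, and Xist and Ddx3y matched the labelled sex in 30 of 30 libraries. Markers of tissue other than follicle varied between libraries. Adipocyte markers (10 of 10 above 1 CPM in every library) had mean levels of 4.28 to 7.12, on the scale of log2(CPM + 1), thymocyte markers 0.96 to 5.52, skeletal muscle markers 1.35 to 11.43 and liver markers 0.49 to 7.55. In whole tissue, fewer cells of a type and less RNA per cell cannot be told apart. The labels do not say how the thyroids were dissected, and p-values measure the spread between these libraries.

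The fatty acid branch stood far above the sterol branch. It took 0.211% to 1.15% of all counts (median 0.543%), against 0.0365% to 0.0657% for the 18 sterol enzymes and 0.0329% to 0.0464% for the 5 regulators. Per kilobase of exon, Scd1, the desaturase that makes monounsaturated fatty acids, came first with a median of 561 CPM per kb over the 30 libraries. Thrsp followed at 115 CPM per kb, Scd2 at 92.1, Fasn, the fatty acid synthase, at 86.2, Me1, the malic enzyme that supplies NADPH, at 85.7, and Acly at 60.6. The neighbours Scd2, Fasn and Me1 lay close together, with overlapping ranges over the libraries. Srebf1 had 32.6 CPM per kb and Srebf2 18.7. Among sterol enzymes the highest was Fdft1, squalene synthase, at 21.6 CPM per kb, but 26.8% of its exon length overlaps Ctsb on the other strand and the counting did not use strand. Hsd17b7, at 1.32, and Fdps, at 0.302 CPM per kb, closed the order. Fdps reached only 0.146 to 2.36 CPM, and 26.7% of its exon length overlaps Gm43738, which had 0 to 0.115 CPM. The level of Fdps is therefore uncertain, and whether reads in shared stretches were counted was not tested. Tm7sf2 shares 15.3% of its exon length with Vps51, Scap 13.2% with 5830462I19Rik and Cyp51 3.76% with Akap9.

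The branches also differed in how much animals of the same group varied. The within-group SD on the log2 scale had a median of 0.48 over the 9 fatty acid genes, against 0.22 over the sterol enzymes, 0.23 over the regulators and 0.26 over all 18493 genes of the largest fit. Fasn (0.65), Scd1 (0.63) and Thrsp (0.60) varied most, and Elovl5, an elongase of polyunsaturated fatty acids, least (0.11). Scd1 ran from 445 CPM in 18-month WT male 1 to 6010 CPM in 2-month WT female 3, a ratio of 13.5, and Thrsp from 35.5 CPM in 18-month WT male 1 to 554 CPM in 2-month WT female 1. Idi1, which makes the isoprenoid unit that chain growth starts from, was the widest sterol enzyme after Fdps, at 0.936 to 12.3 CPM. WT females at 2 months had the highest group mean of all 10 groups for 16 of the 32 genes, namely 7 of 9 fatty acid genes, 7 of 18 sterol enzymes and 2 of 5 regulators. The same count was not made over all genes, so whether this share is unusual was not tested.

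**Figure D1:**
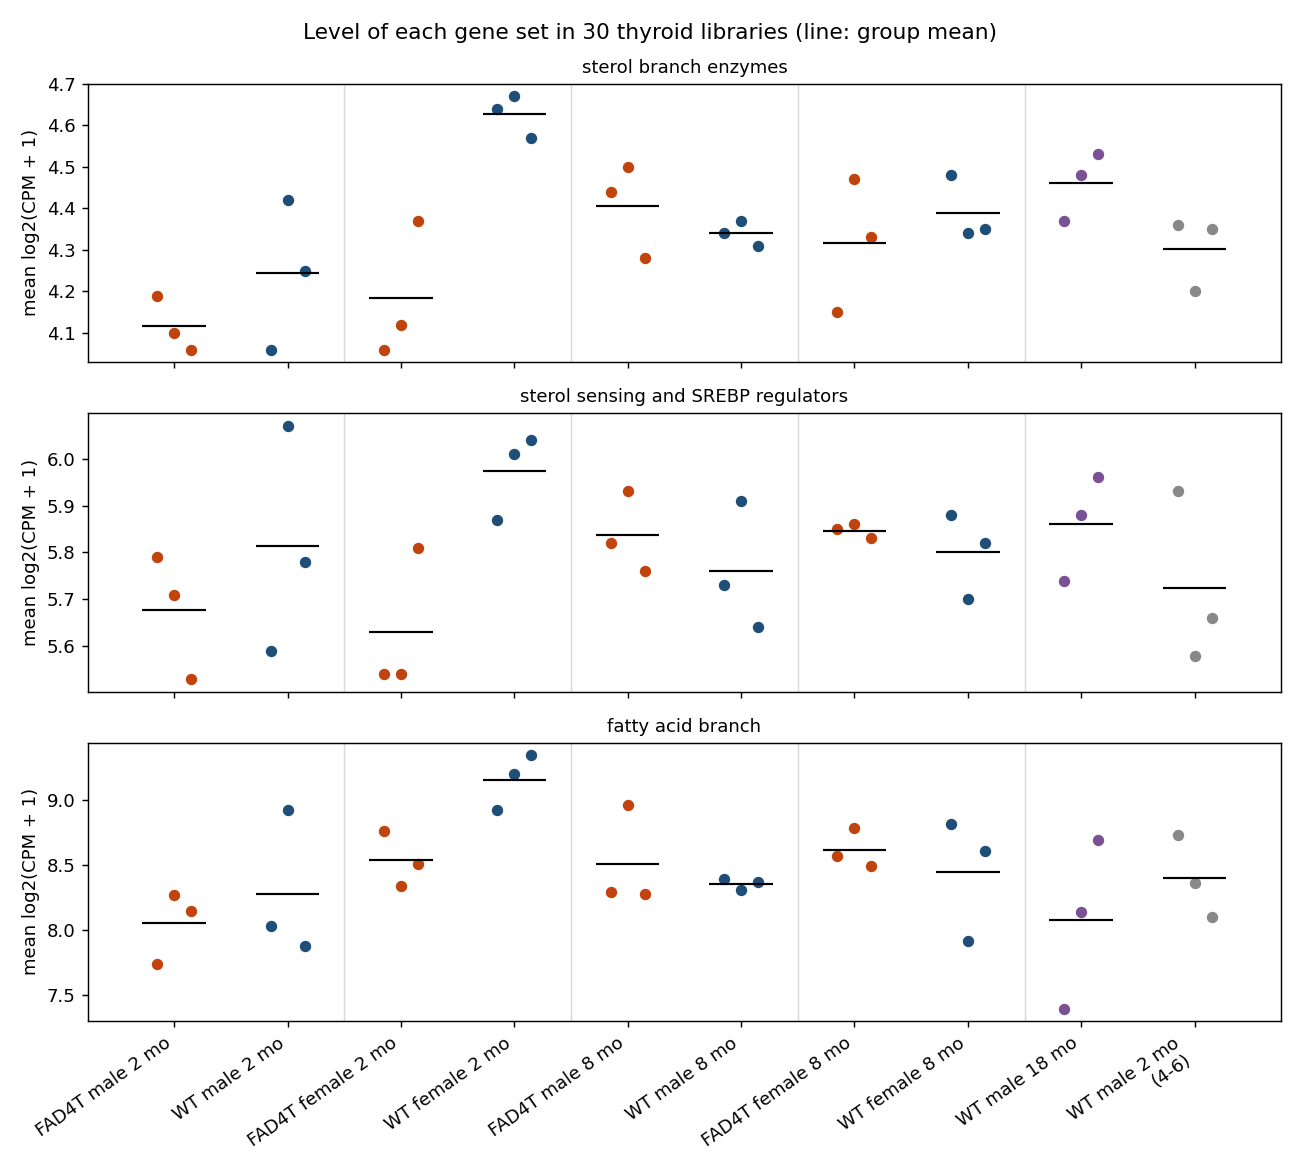
Level of each gene set in each library, as the mean of log2(CPM + 1) over its genes, in 10 groups of 3 libraries; points are libraries (orange FAD4T, blue WT, purple WT at 18 months, grey the 2-month WT males numbered 4 to 6) and lines are group means. The 3 WT females at 2 months lie at 4.57 to 4.67 for sterol enzymes and 8.92 to 9.34 for the fatty acid branch, and the y axes do not start at 0.

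**Figure D2:**
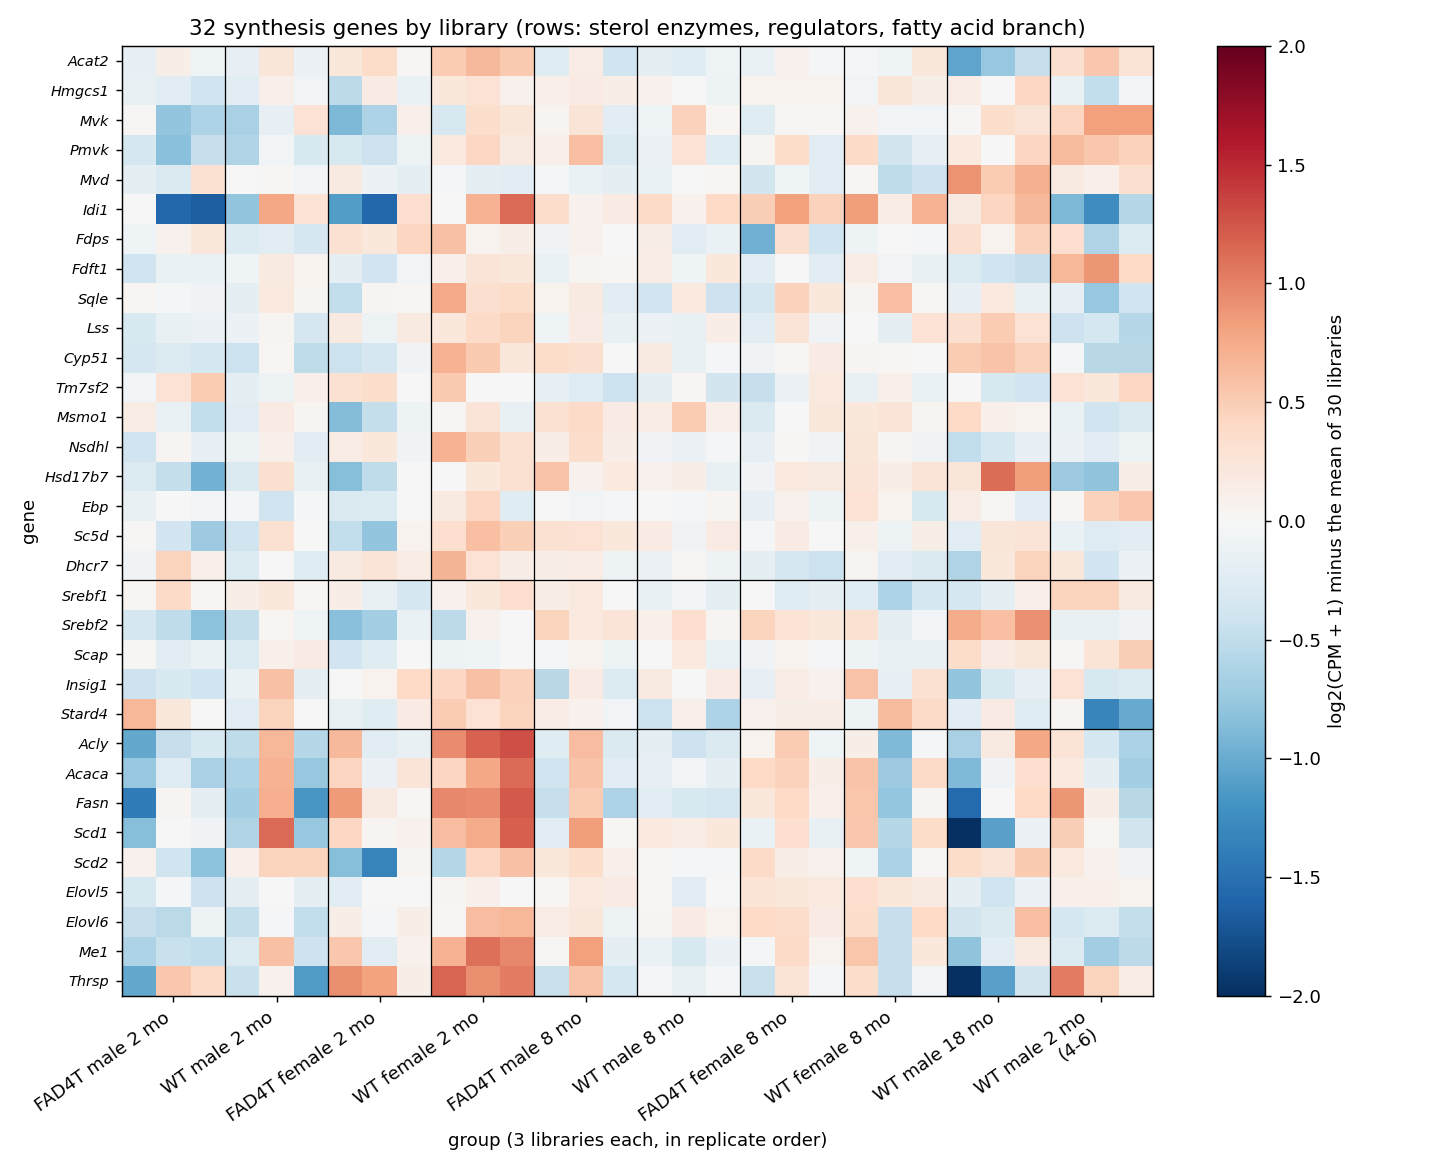
All 32 genes (rows) in 30 libraries (columns, 3 per group), coloured by log2(CPM + 1) minus the gene's mean over the 30 libraries, red above and blue below it, with the colour scale ending at 2 in either direction. Acly, Acaca, Fasn, Scd1 and Me1 are red in all 3 WT females of 2 months and in 2-month WT male 2. These genes are also red in FAD4T libraries, among them 2-month female 1 and 8-month male 2. Idi1 is blue in 2 of 3 FAD4T libraries of each sex at 2 months.

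The largest set of differences between genotypes was in females at 2 months, where synthesis genes were lower in FAD4T thyroids, though none passed the test. Of the 32 genes 29 were lower in FAD4T females, 0 of 32 had an adjusted p under 0.05 (edgeR quasi-likelihood test, Benjamini-Hochberg over 18493 genes), and 0 of 18493 genes (0%) passed. At an unadjusted p under 0.05, 17 of the 32 were lower and 0 higher, where 7.75% of all genes were lower; the 17 became 9 with these 2 groups fitted alone, where 1.84% of all genes were lower. It became 8 without FAD4T female 1 (3.12% of all genes) and 10 without FAD4T female 2 (4.04%) or WT female 2 (4.31%). The 3 FAD4T libraries lay below the 3 WT libraries for 15 of the 32 genes, and 3.93% of all genes did so. Median log2 fold changes were -0.41 for the sterol enzymes, -0.33 for the regulators and -0.66 for the fatty acid branch, beside -0.02 for all genes.

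Cyp51, the lanosterol demethylase, had the smallest p of the 32. It had 14.3, 15.2 and 18.5 CPM in FAD4T females, against 32.2, 28.5 and 22.9 CPM in WT females, a log2 fold change of -0.81 ± 0.16 (SE; edgeR adjusted p = 0.153). The groups did not overlap. No gene of the 18493 had a smaller adjusted p, but this value was tied and not held by Cyp51 alone. Sc5d, the desaturase late in the pathway, had 37.8, 30.6 and 56.2 CPM in FAD4T females, against 67.9, 81.4 and 74.5 CPM in WT females (log2 fold change -0.85 ± 0.20, edgeR adjusted p = 0.153). Again every FAD4T library lay below every WT library, with FAD4T female 3 nearest to WT. Idi1 had the largest fold change, -1.47 ± 0.61 on the log2 scale (edgeR adjusted p = 0.252), with 1.80, 1.04 and 6.67 CPM in FAD4T females and 5.01, 8.81 and 12.3 CPM in WT females. Its groups overlapped through FAD4T female 3. Only Mvd, Fdps and Tm7sf2 had a positive log2 fold change, of 0.11, 0.05 and 0.03.

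In the fatty acid branch of the same females, all 9 genes had lower means in FAD4T. Acly had 563, 307 and 322 CPM in FAD4T females, against 688, 817 and 873 CPM in WT females (log2 fold change -1 ± 0.34, edgeR adjusted p = 0.196). Scd2, the desaturase isoform known from brain and many other tissues, had 260, 186 and 491 CPM in FAD4T females, against 316, 630 and 711 CPM in WT females (-0.83 ± 0.31, edgeR adjusted p = 0.215). Acly groups were apart and Scd2 groups overlapped. Among the regulators, Stard4, a carrier of cholesterol between membranes, had 7.93, 7.37 and 10.1 CPM in FAD4T females, against 13.1, 11.2 and 12.6 CPM in WT females (-0.54 ± 0.24, edgeR adjusted p = 0.27). Srebf1 had 197, 161 and 142 CPM in FAD4T females, against 190, 207 and 227 CPM in WT females (-0.32 ± 0.14, edgeR adjusted p = 0.269), and these overlapped.

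Libraries decided how many of these genes passed. Without FAD4T female 3, 9 of the 32 fell in FAD4T (Mvk, Idi1, Fdft1, Cyp51, Msmo1, Hsd17b7, Sc5d, Srebf2 and Scd2; edgeR adjusted p under 0.05), among 3001 genes of either direction, 15.8% of those tested. Without WT female 3, Cyp51 passed alone of the 32, among 0.686% of all genes. DESeq2 called Cyp51 and Sc5d among 293 genes (1.58%). FAD4T females 1 and 2 had thymocyte marker levels of 4.34 and 4.89, against 1.2 in FAD4T female 3 and 0.96 to 2.28 in WT females. Liver markers stood at 7.55 in WT female 1, against 1 to 1.97 in the other 5 libraries, and adipocyte markers at 6.76, 7.09 and 6.24 in FAD4T females, against 6.88, 6.49 and 6.87 in WT females. Leaving out FAD4T females 1 and 2 keeps 1 FAD4T library, which is then assumed to vary like the other groups. In that library 30 of the 32 genes were lower. The sterol, regulator and fatty acid medians were then -0.26, -0.1 and -0.78, beside -0.41, -0.33 and -0.66 with all libraries. The part of these markers in the result was not tested.

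**Figure D3:**
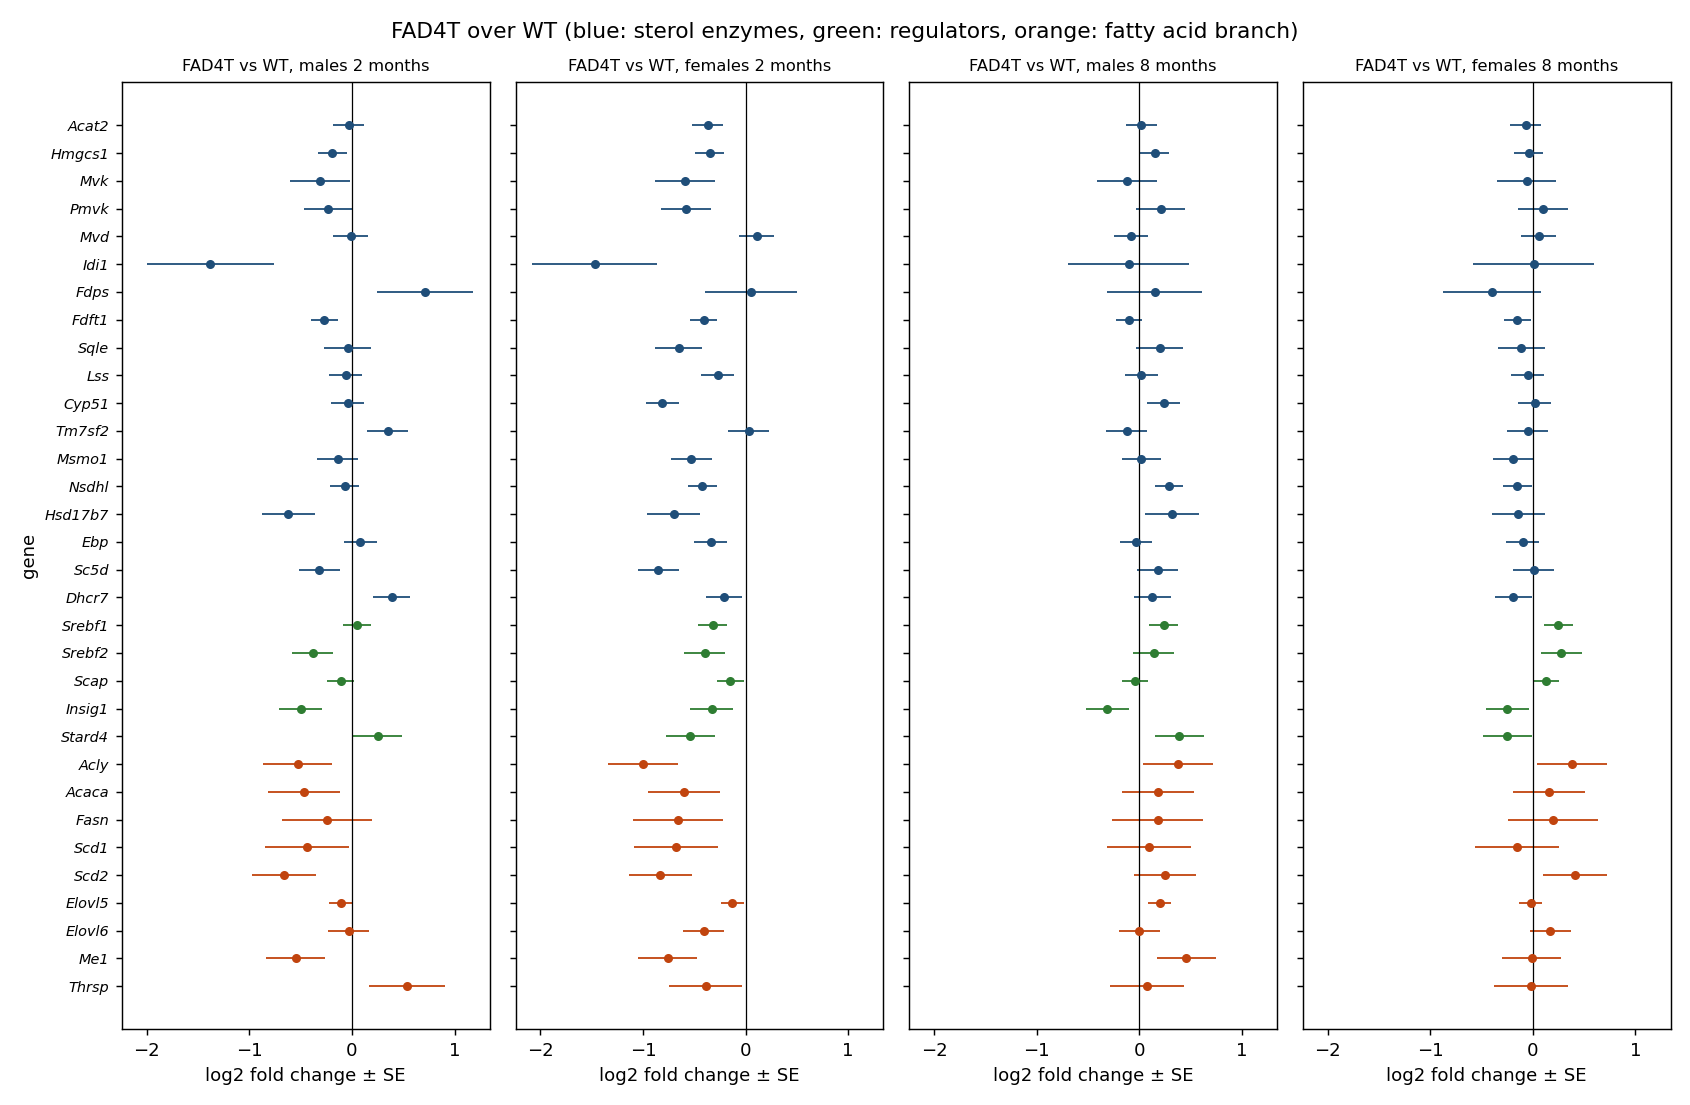
Log2 fold change of FAD4T over WT for each of the 32 genes, with its standard error from the edgeR fit, in males and females at 2 and 8 months; 3 libraries per group. In females at 2 months 29 of 32 points lie left of 0, and none of the points in the 4 panels passed the adjusted threshold.

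In males at 2 months the sterol enzymes hardly differed on balance. The fatty acid branch was lower in FAD4T by its median, which depended on 1 library of the WT group. Thrsp went the other way, with a mean of 268 CPM in FAD4T males and 185 CPM in WT males. None of the 32 genes passed (0 of 18493 genes, 0%, edgeR; DESeq2 called 0 of the 32). At an unadjusted p under 0.05, 5 of 32 were lower and 1 higher, where 5.58% of all genes were lower, and 4 of 32 lay wholly below WT, where 5.82% of all genes did. Median log2 fold changes were -0.06 for the sterol enzymes, -0.11 for the regulators and -0.44 for the fatty acid branch, beside 0.02 for all genes. Without WT male 2, whose fatty acid level was 8.92 beside 8.03 and 7.88 in WT males 1 and 3, the fatty acid median was 0.14, 16 of the 32 genes were lower and 16 higher, and the 5 became 0. The 5 became 1 with these 2 groups fitted alone (3.87% of all genes) or without FAD4T male 3 (1.42%). The 5 became 3 without FAD4T male 2 (1.71%) or WT male 3 (3.08%), and 8 without WT male 1 (9.41%). Acly shows that library: it had 175, 261 and 291 CPM in FAD4T males, against 252, 566 and 240 CPM in WT males.

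The sterol genes with the smallest p in these males were Hsd17b7, a ketosteroid reductase, and Idi1. Hsd17b7 had 5.02, 4.22 and 2.75 CPM in FAD4T males, against 4.91, 8.06 and 5.55 CPM in WT males (log2 fold change -0.62 ± 0.26, edgeR adjusted p = 0.343). Idi1 had 5.02, 1.04 and 0.936 CPM in FAD4T males, against 2.51, 9.35 and 6.43 CPM in WT males (-1.38 ± 0.62, edgeR adjusted p = 0.343). FAD4T males 2 and 3, with the low Idi1, were those with thymocyte levels of 5.52 and 3.74, beside 1.35 in FAD4T male 1 and 1 to 1.2 in WT males, and the 2 FAD4T females with low Idi1 also had high thymocyte levels. Other libraries did not pair the 2 in this way. The 2-month WT males 4 to 6 had 2.26, 1.57 and 3.09 CPM of Idi1 at thymocyte levels of 1.14 to 1.46. The 8-month FAD4T male 1 had 6.74 CPM at a thymocyte level of 3.63. The part of thymocyte RNA in these values was not tested. Insig1 had 47.3, 51.1 and 47.6 CPM in FAD4T males, against 57.5, 94.7 and 55.6 CPM in WT males (-0.50 ± 0.21, edgeR adjusted p = 0.343), with no overlap. Scd2 had 500, 357 and 268 CPM in FAD4T males, against 507, 642 and 642 CPM in WT males (-0.66 ± 0.31, edgeR adjusted p = 0.343), and Me1 had 233, 263 and 254 CPM in FAD4T males, against 298, 539 and 270 CPM in WT males (-0.55 ± 0.29, edgeR adjusted p = 0.351). Both had groups apart. Srebf2 had a mean of 63.3 CPM in FAD4T males and 82.9 CPM in WT males (-0.38 ± 0.2, edgeR adjusted p = 0.346). With the WT males numbered 4 to 6 in place of 1 to 3, 6 of the 32 genes passed (1 higher, 5 lower) among 24.3% of all genes.

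At 8 months the genotypes lay close together in both sexes. In males, 0 of 32 genes passed (0 of 18493 genes, 0%, edgeR; DESeq2 also 0), 0 reached an unadjusted p under 0.05, and 6 of 32 lay wholly above WT, where 5.22% of all genes did. The medians were 0.08 for the sterol enzymes, 0.14 for the regulators and 0.18 for the fatty acid branch. Brown fat marker levels were 3.75 to 4.41 in FAD4T males and 4.72 to 5.27 in WT males. Their part in the values was not tested. Nsdhl, a dehydrogenase of the demethylation steps, had 29.7, 34.7 and 29.7 CPM in FAD4T males, against 25.8, 24.7 and 26.5 CPM in WT males (log2 fold change 0.29 ± 0.14, edgeR adjusted p = 1), with no overlap. Elovl5 had 80.1, 89.9 and 87.7 CPM in FAD4T males, against 79.0, 67.5 and 78.2 CPM in WT males (0.20 ± 0.11, edgeR adjusted p = 1). Srebf1 (0.24 ± 0.14), Stard4 (0.39 ± 0.24) and Me1 (0.46 ± 0.29) also had positive log2 fold changes, each with an edgeR adjusted p of 1. Cyp51 had 25.6, 24.5 and 19.3 CPM in FAD4T males, against 22.2, 17.5 and 19.1 CPM in WT males (0.24 ± 0.16, edgeR adjusted p = 1).

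In females at 8 months, 4 of 18493 genes (0.0216%) passed and 0 of the 32 (edgeR; DESeq2 also 0), 0 reached an unadjusted p under 0.05, and 2 of 32 lay wholly above WT, where 5.96% of all genes did. These were Scap and Scd2. Scd2 had 617, 512 and 502 CPM in FAD4T females, against 444, 303 and 479 CPM in WT females (log2 fold change 0.41 ± 0.31, edgeR adjusted p = 1). Srebf1 had 179, 149 and 156 CPM in FAD4T females, against 151, 116 and 141 CPM in WT females (0.25 ± 0.14, edgeR adjusted p = 1). Cyp51, at 18.5, 20 and 22.1 CPM in FAD4T females and 20.3, 19.8 and 19.4 CPM in WT females, had a log2 fold change of 0.02 ± 0.16. Srebf2 (0.28 ± 0.2) and Acly (0.38 ± 0.34) had positive log2 fold changes and Fdft1 (-0.15 ± 0.13) and Dhcr7 (-0.19 ± 0.18) negative ones, each with an edgeR adjusted p of 1. Medians were -0.06, 0.13 and 0.16 for sterol enzymes, regulators and fatty acid branch. All 10 skeletal muscle markers were lower in these FAD4T females in every library (levels 1.35 to 1.99 in FAD4T and 5.47 to 8.75 in WT); their part in the values was not tested.

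Averaged over both sexes and both ages, 26 of the 32 genes were lower in FAD4T and 0 passed (0 of 18493 genes, 0%, edgeR; DESeq2 called Fdft1 among 1.69% of all genes). At an unadjusted p under 0.05, 6 of 32 were lower and 0 higher, where 6.46% of all genes were lower. Without 2-month WT male 2 the 6 became 2, where 5.29% of all genes were lower, and the fatty acid median was -0.03. Fdft1 was lower by 0.23 on the log2 scale (log2 fold change -0.23 ± 0.06, edgeR adjusted p = 0.166), and Insig1 had -0.35 ± 0.10 (edgeR adjusted p = 0.185). Sc5d had -0.25 ± 0.1, Me1 -0.22 ± 0.14, Scd1 -0.29 ± 0.21 and Srebf2 -0.09 ± 0.1, with edgeR adjusted p-values of 0.272, 0.45, 0.47 and 0.654. Without the 5 libraries with a thymocyte level above 3, which leaves 1 FAD4T library of each sex at 2 months, 27 of the 32 were lower. The sterol, regulator and fatty acid medians were then -0.08, 0.04 and -0.24. With all libraries they were -0.12, -0.04 and -0.18. Without FAD4T female 3 of the 2-month group, Idi1, Fdft1, Sc5d and Insig1 fell in FAD4T over the 4 strata, among 6.87% of all genes.

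The difference between strata was itself tested and passed for 0 of 18493 genes (0%) in each of 4 interaction tests (edgeR; DESeq2 called 0 of the 32 in each). The FAD4T effect was more positive at 8 than at 2 months in females for 29 of the 32 genes, 6 of them at an unadjusted p under 0.05, where 3.59% of all genes were; these included Cyp51 (difference of log2 fold changes 0.83 ± 0.23, edgeR adjusted p = 0.564) and Acly (1.38 ± 0.48, edgeR adjusted p = 0.564). In males it was more positive at 8 than at 2 months for 26 of the 32, 3 at an unadjusted p under 0.05, where 2.15% of all genes were, with Hsd17b7 first (0.94 ± 0.36, edgeR adjusted p = 0.735). Without 2-month WT male 2 the 26 became 20, the 3 became 0 (1.06% of all genes) and the fatty acid median of 0.54 became 0.02. The 3 became 6 without 2-month FAD4T male 1 (9.51% of all genes) or WT male 1 (3.5%). The 3 became 1 without 8-month FAD4T male 2 (2.02%). At 2 months the effect was more positive in males than in females for 30 of the 32, 3 at an unadjusted p under 0.05, where 2.24% of all genes were. Cyp51 came first there (0.76 ± 0.23, edgeR adjusted p = 1). The 3 became 10 without WT male 2 (2.22% of all genes) and 6 without FAD4T female 3 (3.3%). The 3 became 1 without WT male 1 (2.57%), WT male 3 (2.15%) or WT female 1 (1.16%). Across ages in females the 6 became 11 without 2-month FAD4T female 3, where 14.4% of all genes reached that p in the same direction. At 8 months it was more positive in males for 21 of the 32, with Nsdhl alone (0.44 ± 0.20, edgeR adjusted p = 1) at an unadjusted p under 0.05, where 1.66% of all genes were. The other genes with the smallest p in each set were Sc5d, Srebf1, Srebf2 and Scd2 across ages in females (0.57 to 1.24), and Nsdhl, Srebf1, Srebf2, Scd2 and Me1 across ages in males (0.19 to 1.02). Between sexes they were Dhcr7, Stard4, Srebf1, Thrsp and Elovl6 at 2 months (0.37 to 0.93) and Dhcr7, Stard4, Scap, Elovl5 and Me1 at 8 months (-0.17 to 0.64). Without the 5 libraries of high thymocyte level, the difference between sexes at 2 months was positive for 20 of the 32, and that across ages in females for 28. The tests at 2 months and across ages in females use the same 2-month female libraries.

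Among WT mice at 2 months, males had lower synthesis genes than females, and none of the 32 passed. Of the 32 genes 29 were lower in males, 15 of them at an unadjusted p under 0.05, where 4.42% of all genes were lower; the 15 became 9 without WT male 1, where 4.58% of all genes were lower. The 3 males lay wholly below the 3 females for 15 of the 32, and 4.41% of all genes did so. With the edgeR test 14 of 18493 genes (0.0757%) passed and 0 of the 32; DESeq2 called Acat2, Cyp51, Nsdhl, Acly, Elovl6 and Thrsp, all lower in males, among 1.47% of all genes. Medians were -0.49 for the sterol enzymes, -0.10 for the regulators and -0.88 for the fatty acid branch. These are the same WT females as in the 2-month genotype comparison, so the 2 comparisons are not independent.

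Cyp51 had 14.3, 20.1 and 13.5 CPM in WT males, against 32.2, 28.5 and 22.9 CPM in WT females (log2 fold change -0.81 ± 0.16, edgeR adjusted p = 0.082). Nsdhl had 25.1, 28.9 and 22.8 CPM in WT males, against 44.5, 37.8 and 33.5 CPM in WT females (-0.60 ± 0.14, edgeR adjusted p = 0.107). For both, the sexes did not overlap. Thrsp had 181, 262 and 112 CPM in WT males, against 554, 468 and 500 CPM in WT females (-1.46 ± 0.37, edgeR adjusted p = 0.109). Elovl6, which elongates palmitate, had 85.1, 117 and 84.6 CPM in WT males, against 123, 184 and 190 CPM in WT females (-0.80 ± 0.20, edgeR adjusted p = 0.109). Neither gene overlapped between the sexes. Insig1 (-0.37 ± 0.21, edgeR adjusted p = 0.902) and Stard4 (-0.35 ± 0.24, edgeR adjusted p = 1) overlapped. Cyp51 fell in males without WT male 2 (among 0.136% of all genes called) or without WT female 2 (1.33%). Cyp51 and Nsdhl fell without WT female 3 (1.2%). Adipocyte markers were lower in these males for 10 of 10 genes, 1 of which passed, with a median log2 fold change of -0.89 and levels of 5.45 to 6.19 in males and 6.49 to 6.88 in females. Brown fat markers were lower in males for 6 of 7 genes, 1 of which passed (median -1.18), and liver markers for 10 of 10, with levels of 0.77 to 1.02 in males and 7.55, 1 and 1.07 in females. Their part in the result was not tested.

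Among WT mice at 8 months, 50 of 18493 genes (0.27%) differed by sex and 0 of the 32 did (edgeR; DESeq2 also 0). Medians were -0.05, 0.12 and -0.10. At an unadjusted p under 0.05, 2 of 32 were lower in males (3.02% of all genes). The 2 became 1 without WT male 3 (2.76%) or WT female 2 (2.38%). In 3 of 32 the males lay wholly below the females, where 5.41% of all genes did. Elovl5 was among these, with 79.0, 67.5 and 78.2 CPM in WT males, against 98.6, 91.7 and 89.0 CPM in WT females (log2 fold change -0.33 ± 0.11, edgeR adjusted p = 0.509). Stard4 had 6.42, 9.62 and 5.46 CPM in WT males, against 8.26, 14.5 and 12 CPM in WT females (-0.71 ± 0.24, edgeR adjusted p = 0.509), and these overlapped. Cyp51 had 22.2, 17.5 and 19.1 CPM in WT males, against 20.3, 19.8 and 19.4 CPM in WT females. Sqle (-0.47 ± 0.23, edgeR adjusted p = 0.999), Acat2 (-0.24 ± 0.15), Me1 (-0.36 ± 0.29) and Srebf1 (0.25 ± 0.14) had adjusted p-values of 0.999 to 1.

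WT females at 8 months had lower levels than at 2 months. Of 18493 genes 47 (0.254%) passed the edgeR test and 0 of the 32 did. Of the 32, 28 were lower at 8 months, 10 of them at an unadjusted p under 0.05, where 4.37% of all genes were, and 13 lay wholly below the 2-month libraries, where 6.71% of all genes did. Srebf1 had 151, 116 and 141 CPM at 8 months, against 190, 207 and 227 CPM at 2 months (log2 fold change -0.60 ± 0.14, edgeR adjusted p = 0.0808). Acly had 390, 193 and 353 CPM at 8 months, against 688, 817 and 873 CPM at 2 months (-1.34 ± 0.35, edgeR adjusted p = 0.109). DESeq2 called both among 1.44% of all genes. Srebf1 passed in edgeR, among 1.11% of all genes, without 2-month WT female 1, the library with the liver marker level of 7.55. Medians were -0.25 for the sterol enzymes, -0.08 for the regulators and -0.67 for the fatty acid branch. Without 8-month WT female 2 the 10 became 7 (3.51% of all genes) and the fatty acid median -0.4. Without 8-month WT female 1 they became 12 (3.72%) and -0.89. The 2-month libraries are the same WT females as in the genotype and sex comparisons at 2 months, so these comparisons are not independent. Acat2, the cytosolic thiolase that starts the sterol branch, had 40.2, 38.3 and 48.0 CPM at 8 months, against 58.3, 64.8 and 59.0 CPM at 2 months (-0.52 ± 0.15, edgeR adjusted p = 0.158). Dhcr7 (-0.57 ± 0.18, edgeR adjusted p = 0.208) and Thrsp (-1.05 ± 0.37, edgeR adjusted p = 0.31) also had the ages apart, and Insig1 (-0.21 ± 0.21, edgeR adjusted p = 0.88) did not.

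In WT males the 2 ages were close: 128 of 18493 genes (0.692%) passed and 0 of the 32 (edgeR; DESeq2 also 0), and 0 of the 32 reached an unadjusted p under 0.05. Medians were 0.08, -0.02 and -0.07; the fatty acid median was 0.56 without 2-month WT male 2. Srebf1 had 162, 173 and 156 CPM at 8 months, against 194, 207 and 184 CPM at 2 months (log2 fold change -0.26 ± 0.14, edgeR adjusted p = 0.534), with the ages apart as in females. Elovl6 (0.42 ± 0.2), Cyp51 (0.29 ± 0.16) and Msmo1 (0.26 ± 0.2) had positive log2 fold changes and Stard4 (-0.43 ± 0.24) and Scd2 (-0.36 ± 0.31) negative ones, with edgeR adjusted p-values of 0.433 to 0.754. Liver markers stood at 4.11 to 5.55 in all 12 libraries of 8 months, against 0.77 to 1.97 in 11 of the 12 libraries of 2 months in the same fit, and their part was not tested.

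At 18 months, WT males had more of several sterol enzymes and of Srebf2 than the 2-month males numbered 4 to 6, and less of others. Of the 32 genes 13 passed, 7 higher (Idi1, Hsd17b7, Cyp51, Srebf2, Lss, Mvd and Msmo1) and 6 lower (Acat2, Fdft1, Tm7sf2, Mvk, Srebf1 and Elovl5). This comparison moved much of the transcriptome: 5840 of 16283 genes (35.9%) passed, 17.1% higher and 18.8% lower, so 13 of 32 is near the share of all genes. The 13 became 6 without 2-month male 5, where 21.7% of all genes passed, and 3 (Mvd, Cyp51 and Srebf2) with males 1 to 3 as the younger animals, where 5.28% of all genes passed. The 18-month libraries lay wholly above the 2-month ones for 10 of the 32 and below for 8, against 25.4% and 26% of all genes. Median log2 fold changes were 0.35 for the sterol enzymes, -0.03 for the regulators, 0.04 for the fatty acid branch and -0.01 for all genes.

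Srebf2 and Cyp51 rose, and passed in all 11 alternative settings tried for this comparison. Srebf2 had 156, 141 and 175 CPM at 18 months, against 83.6, 83.4 and 88.5 CPM at 2 months (log2 fold change 0.87 ± 0.12, edgeR adjusted p = 0.00163), and the 2-month males numbered 1 to 3 had 66.1, 95.3 and 87.4 CPM. Every 18-month library exceeded all 6 of the 2-month males. Cyp51 had 28.2, 29.4 and 27.2 CPM at 18 months, against 19.0, 12.9 and 12.9 CPM at 2 months (0.90 ± 0.18, edgeR adjusted p = 0.00563), with 14.3, 20.1 and 13.5 CPM in males 1 to 3. Lss had 33.2, 38.3 and 32.7 CPM at 18 months, against 19.7, 20.6 and 17.5 CPM at 2 months (0.84 ± 0.14, edgeR adjusted p = 0.00292). It passed in 10 of 11 settings and missed with males 1 to 3 (edgeR adjusted p = 0.0785). Mvd, the decarboxylase that ends the mevalonate steps, had 40.6, 30.9 and 35.8 CPM at 18 months, against 24.5, 23.0 and 27.1 CPM at 2 months (0.52 ± 0.14, edgeR adjusted p = 0.0209), and was larger against males 1 to 3 (0.76 ± 0.15, edgeR adjusted p = 0.0248).

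Idi1 and Hsd17b7 had the largest rises, and neither passed against the other 2-month males. Idi1 had 5.84, 7.18 and 8.46 CPM at 18 months, against 2.26, 1.57 and 3.09 CPM at 2 months (log2 fold change 1.62 ± 0.31, edgeR adjusted p = 0.0051), but 2.51, 9.35 and 6.43 CPM in males 1 to 3, against whom the log2 fold change was 0.25 ± 0.42 (edgeR adjusted p = 0.755). Hsd17b7 had 7.57, 14.7 and 11.9 CPM at 18 months, against 3.39, 3.13 and 6.87 CPM at 2 months (1.34 ± 0.36, edgeR adjusted p = 0.02), and 0.89 ± 0.30 against males 1 to 3 (edgeR adjusted p = 0.101). Msmo1 rose by 0.47 ± 0.14 on the log2 scale (edgeR adjusted p = 0.0334); against males 1 to 3 its log2 fold change was 0.21 ± 0.17 (edgeR adjusted p = 0.455).

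Acat2 and Fdft1 fell. Acat2 had 19.2, 23.8 and 29.3 CPM at 18 months, against 51.3, 59.7 and 49.3 CPM at 2 months (log2 fold change -1.16 ± 0.17, edgeR adjusted p = 0.00204), with 36.4, 48.6 and 37.7 CPM in males 1 to 3. All 3 values at 18 months lay below those of all 6 younger males. Fdft1 had 53.2, 48.4 and 46.6 CPM at 18 months, against 103, 120 and 85.3 CPM at 2 months (-1.07 ± 0.15, edgeR adjusted p = 0.00171), with 60.3, 72.6 and 67.5 CPM in males 1 to 3. Against males 1 to 3 the edgeR adjusted p was 0.0512 for Acat2 and 0.085 for Fdft1. Ctsb, whose exons overlap those of Fdft1, had 979, 880 and 975 CPM at 18 months, against 1240, 1480 and 1300 CPM at 2 months, and 842, 925 and 1040 CPM in males 1 to 3. Whether reads in the shared stretch were counted for Fdft1, for Ctsb, for both or for neither was not tested. Srebf1 had 140, 159 and 193 CPM at 18 months, against 245, 245 and 204 CPM at 2 months (-0.51 ± 0.16, edgeR adjusted p = 0.0338). Males 1 to 3 had 194, 207 and 184 CPM of Srebf1, a range that holds 18-month male 3. It passed in 5 of the 11 alternatives, with log2 fold changes of -0.64 to -0.24. Mvk, mevalonate kinase, fell by 0.53 on the log2 scale (edgeR adjusted p = 0.0451) and had a log2 fold change of 0.38 against males 1 to 3 (edgeR adjusted p = 0.374), a change of direction. Pmvk (-0.36 and 0.56), Ebp (-0.4 and 0.14), Stard4 (0.6 and -0.2), Sqle (0.4 and -0.05), Me1 (0.25 and -0.26), Scap (-0.03 and 0.26) and Acaca (0.04 and -0.05), none of which passed against either set, also differed in sign between males 4 to 6 and males 1 to 3.

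In the fatty acid branch only Elovl5 passed, with 68.2, 59.2 and 72.0 CPM at 18 months, against 84.0, 83.8 and 82.0 CPM at 2 months (log2 fold change -0.34 ± 0.11, edgeR adjusted p = 0.0462), and it passed in 0 of the 11 alternatives. Scd1 had 445, 1240 and 2430 CPM at 18 months, against 3710, 2710 and 2040 CPM at 2 months, so 18-month male 3 lay inside the younger range (-1.05 ± 0.62, edgeR adjusted p = 0.245). Thrsp had 35.5, 116 and 191 CPM at 18 months, against 500, 337 and 274 CPM at 2 months (-1.71 ± 0.67, edgeR adjusted p = 0.111). Males 1 to 3 had 181, 262 and 112 CPM of Thrsp, which overlapped the 18-month values. All 10 adipocyte markers were lower at 18 months, 8 of them past the threshold, with a median log2 fold change of -1.79 and levels of 4.28, 5.24 and 5.38 at 18 months and 7.12, 6.86 and 6.75 at 2 months. Scd1 and Thrsp, like the mean adipocyte marker level, were lowest in 18-month male 1 and highest among the 18-month animals in male 3. Single adipocyte genes did not share 1 order. Adipoq (14.1, 30.9 and 24.6 CPM) and Cfd (67.7, 156 and 123 CPM) were highest in male 2. Plin1 (13.5, 30.4 and 53.6 CPM) and Lep (2.59, 3.32 and 9.26 CPM) were highest in male 3. Liver markers were lower at 18 months for 6 of 6 genes tested, 4 past the threshold. Brown fat markers stood at 2.81 to 4.45 at 18 months, against 5.17 to 5.75 at 2 months. The part of adipocyte, brown fat and liver RNA was not tested.

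**Figure D4:**
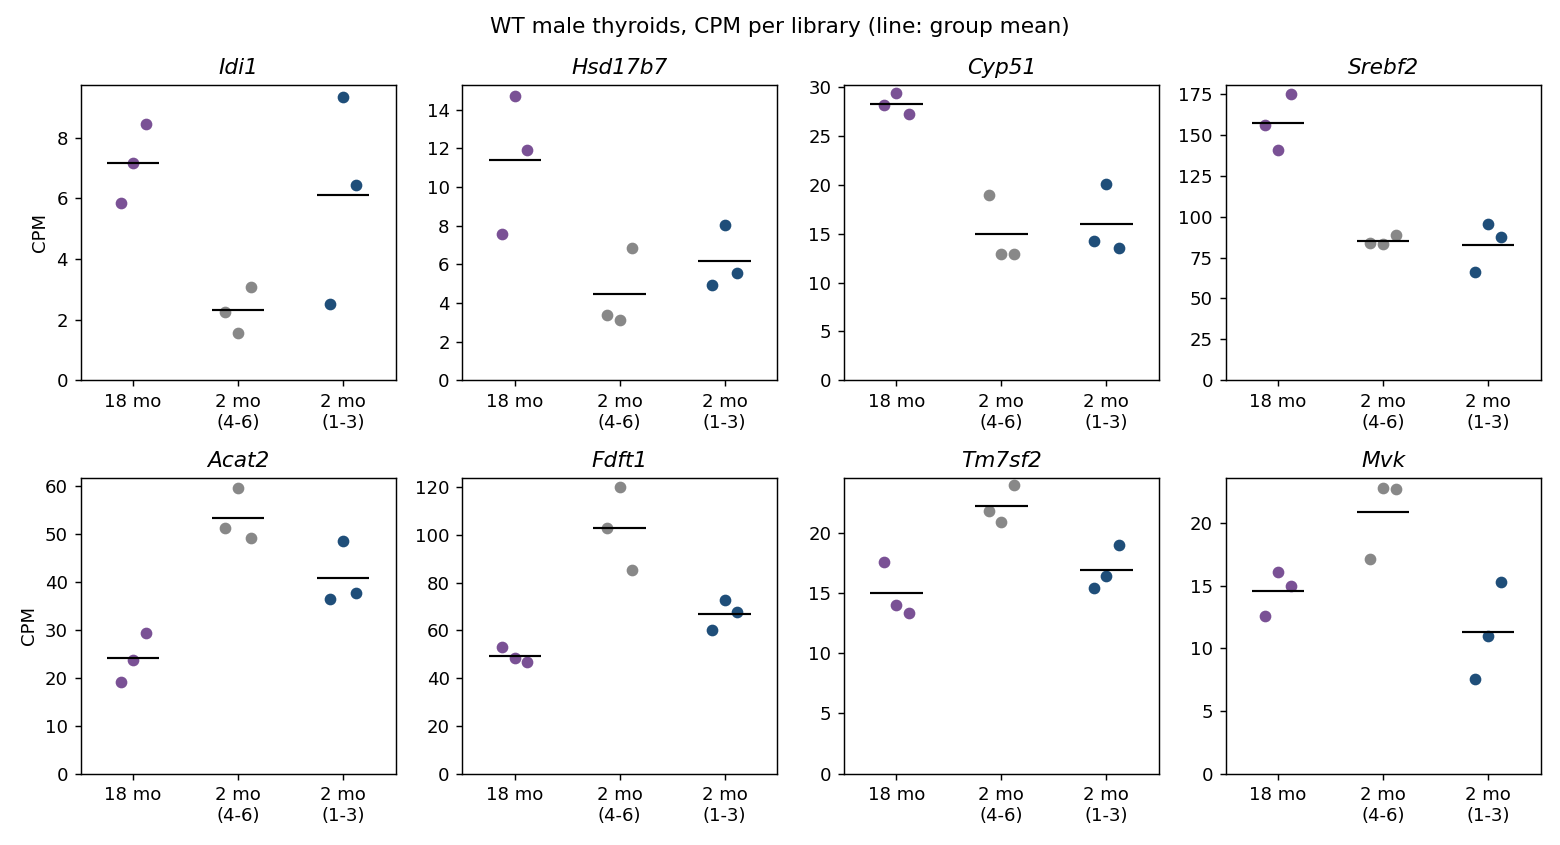
CPM of 8 sterol genes in WT males at 18 months (purple), WT males at 2 months numbered 4 to 6 (grey) and 1 to 3 (blue); points are libraries, lines group means, and y axes start at 0. Srebf2 and Cyp51 at 18 months lie above both younger sets, whereas Idi1 at 18 months lies within the range of males 1 to 3.

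The 2 sets of 2-month WT males carry the same labels, and they differed. Between males 4 to 6 and males 1 to 3, 3328 of 16161 genes (20.6%) passed, 9.74% higher and 10.9% lower, and 4 of the 32 did (edgeR). Without male 1, 3 or 6 the 4 became 2, where 18.2%, 12.6% and 9.39% of all genes passed, and without male 5 it became 1, where 8.79% did. Pmvk had 30.8, 28.8 and 27.1 CPM in males 4 to 6, against 12.4, 18.6 and 15.5 CPM in males 1 to 3 (log2 fold change 0.87 ± 0.18, edgeR adjusted p = 0.0097). Mvk had 17.1, 22.8 and 22.7 CPM in males 4 to 6, against 7.54, 11 and 15.3 CPM in males 1 to 3 (0.86 ± 0.25, edgeR adjusted p = 0.0302), and Fdft1 was higher by 0.60 ± 0.17 (edgeR adjusted p = 0.0249). Idi1 was lower, with a log2 fold change of -1.42 ± 0.45 (edgeR adjusted p = 0.0448). In all, 9 of the 32 lay wholly above males 1 to 3, where 21.6% of all genes did. Srebf2 (0.01 ± 0.16) and Cyp51 (-0.12 ± 0.22) were close in the 2 sets. Adipocyte markers were higher in males 4 to 6 for 10 of 10 genes, 7 past the threshold. Muscle markers stood at 8.67 to 11.43, against 1.36 to 8.06 in males 1 to 3. Brown fat markers stood at 5.17 to 5.75, against 3.63 to 4.12 in males 1 to 3. The set and the age groups cannot be told apart where males 4 to 6 are the only younger animals.

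Over the 30 libraries the fatty acid level and the adipocyte marker level were lowest in the same library, 18-month WT male 1 (7.40 and 4.28). They were not highest together: the fatty acid level peaked in 2-month WT females 3 and 2 (9.34 and 9.20), whose adipocyte levels were 6.87 and 6.49, and the adipocyte level in 2-month WT male 4 and FAD4T female 2 (7.12 and 7.09), whose fatty acid levels were 8.73 and 8.34. These points share normalization and tissue, and no test was made.

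**Figure D5:**
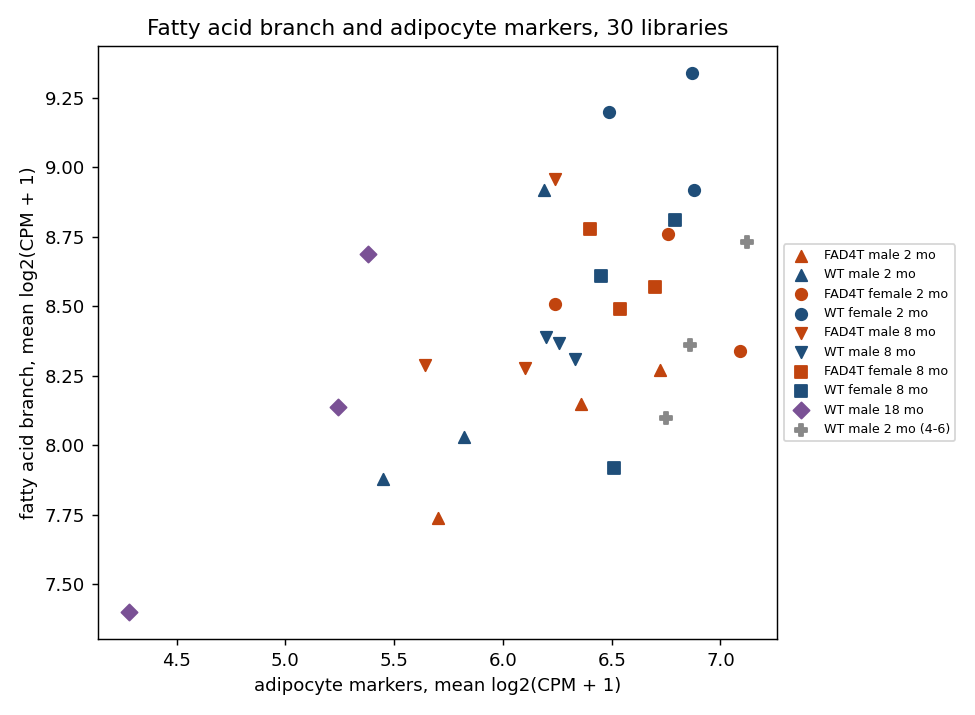
Level of the 9 fatty acid genes (y axis) against that of 10 adipocyte markers (x axis), each as the mean of log2(CPM + 1), in 30 libraries; orange is FAD4T, blue, purple and grey are WT, and shapes are groups. The 18-month males lie to the left, at 4.28 to 5.38 on the x axis, and the 3 WT females of 2 months at the top, at 8.92 to 9.34 on the y axis.

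Genes of the same pathways outside the 32 were counted in 2 further lists, 20 lipogenic genes and 18 tested sterol genes. In FAD4T females at 2 months, 19 of 20 lipogenic genes were lower (median log2 fold change -0.46), 8 of them at an unadjusted p under 0.05, where 7.75% of all genes were lower. Elovl3, an elongase of brown fat and skin, had the smallest p (-1.55 ± 0.51, edgeR adjusted p = 0.185). Of the 18 sterol genes 13 were lower (median -0.2), 3 at an unadjusted p under 0.05. At 18 months 6 of 20 lipogenic genes passed, 2 higher and 4 lower, where 17.1% of all genes were higher and 18.8% lower. Dgat1, which makes triglyceride, fell by 1.02 ± 0.13 on the log2 scale (edgeR adjusted p = 0.00141), and Acsl3, an acyl-CoA synthetase of lipid droplets, rose by 0.77 ± 0.18 (edgeR adjusted p = 0.0124). Of the sterol genes 12 of 18 passed, 4 higher and 8 lower, beside the same shares of all genes. Ggps1, which makes geranylgeranyl diphosphate, rose by 0.94 ± 0.17 (edgeR adjusted p = 0.00364), and Scarb1, the receptor that takes up cholesterol from HDL, fell by 1.12 ± 0.14 (edgeR adjusted p = 0.00134). Between the 2 sets of 2-month males these genes went the other way round: Ggps1 was lower in males 4 to 6 (-0.83 ± 0.19, edgeR adjusted p = 0.0121) and Scarb1 higher (0.57 ± 0.14, edgeR adjusted p = 0.017).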

How the data were processed

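Poly(A) RNA from thyroid was made into dUTP libraries and sequenced in pairs, per the labels' protocols. The authors deposited raw counts per gene for each of 30 libraries. Per the file headers, reads were assigned to exons and summed by gene identifier with featureCounts 1.6.0, in paired mode, without strand, on Ensembl release 88 (GRCm38); the submitters' processing notes list GRCm39, edgeR, DESeq2, StringTie 1.3.4d, HISAT2 2.0.4 and cutadapt 1.9, with no role given. Coordinates here are those of the file headers' annotation and of GRCm38.p6 promoter windows from RefSeq. Because the counting did not use strand, reads of overlapping genes on the other strand cannot be told apart.

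Counts were tested with edgeR 4.0.16 (quasi-likelihood, robust, TMM, filterByExpr with a minimum count of 10, prior count 0.125) in R 4.3.3, with Benjamini-Hochberg adjustment over all genes and a threshold of 0.05. The 24 libraries of the genotype study were fitted together (18493 genes), and the 18-month set (16283 genes) and the 2 sets of 2-month WT males (16161 genes) apart; all 32 genes passed the filter in each. Errors are standard errors of the log2 fold change; printed CPM values and levels use TMM over all 30 libraries and a pseudocount of 1. Samples were grouped by their labels. Of 30 within-group pairs of libraries 0 were identical. The code was tested on simulated data. Alternatives were DESeq2 1.42.0, its size factors, no filter, only the compared groups in the fit, a block for title numbers, each library left out, and the other 2-month WT males; leaving out 5 libraries with a thymocyte marker level above 3 was chosen after seeing the data.

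The genes and all lists were chosen with earlier results of these data known. In each comparison the genes past the threshold are named (with more than 8, the 4 with the largest change in each set), or, where none passed, the 2 of each set with the smallest p. Other genes, among them Idi1 in females, Acly in males at 2 months, Scd1 and Thrsp at 18 months and Cyp51 as a repeated example, were named after their values were seen.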

Additional observations from a re-analysis of the deposited data

How the results depend on the processing

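In FAD4T against WT and the comparisons of age to 8 months and of sex, edgeR called 0 of the 32 genes. DESeq2 called 2 in FAD4T females at 2 months (1.58% of all genes) and 1 in the mean of strata (1.69%). DESeq2 also called 2 in WT females of 8 against 2 months (1.44%), and 6 in WT males against females at 2 months (1.47%). With no filter, 8 of the 32 genes passed between the sets of 2-month males, where 14.3% of all genes did. At 18 months, 3 passed with males 1 to 3 (5.28% of all genes) and 6 with all 6 younger males (8.41%). The sterol median was then 0.26 and 0.22. With WT males 4 to 6, 6 passed in FAD4T males at 2 months, where 24.3% of all genes did. Without the high-thymocyte libraries the medians of FAD4T females at 2 months were -0.26 (sterol), -0.1 (regulators) and -0.78 (fatty acid). Directions turned for Mvk (0.38 with males 1 to 3), Idi1 and Me1 (0.04 and 0.01 in FAD4T males at 2 months with WT males 4 to 6) and Srebf2 (0.04 in the mean of strata without the high-thymocyte libraries); the cause was not tested. Over the genes named or called in each comparison, and not the other members, 1233 values under alternatives kept direction and side of the threshold, 61 lost the call, 21 gained it and 4 turned.

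Leaving out 1 library at a time, the number of genes called was 6 to 11 at 18 months, 0 to 1 in WT females of 8 against 2 months, 0 to 9 in FAD4T females at 2 months, 0 to 4 in the mean of strata, 0 to 2 between sexes at 2 months and 1 to 5 between the sets of 2-month males. Fatty acid medians ran from -0.33 to 0.56 in WT males of 8 against 2 months, -0.71 to 0.14 in FAD4T males at 2 months, -1.51 to -0.68 between sexes at 2 months and -0.37 to 0.33 between the sets. Sterol medians ran from 0.26 to 0.43 at 18 months, -0.03 to 0.14 in FAD4T males at 8 months, -0.59 to -0.33 between sexes at 2 months and -0.18 to 0.14 between the sets.

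Libraries of the same title number were slightly more alike than others. The median correlation was 0.05 for same-number pairs (-0.52 to 0.57) and -0.03 for other numbers. Of 84 same-number pairs 36 had a correlation over 0.1, and 12 of 24 libraries correlated best with their own number. With the number as a replicate block, 0 of the 32 genes were called in FAD4T females at 2 months, as without it. The number of the 32 genes called was 0 in every comparison of the 24-library fit with and without the block. At an unadjusted p under 0.05, the 5 lower in FAD4T males at 2 months became 3, where 4.65% of all genes were lower.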
